A study of Mus musculus with 146 samples.

Results

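Histone variants replace the standard histones of the nucleosome outside S phase, and their mRNAs are mostly polyadenylated, unlike those of the replication-dependent histone genes. Linker histones of the H1 family bind DNA where it enters and leaves the nucleosome, and the oocyte has a linker histone of its own, H1FOO. Nucleoplasmins are histone chaperones, acidic proteins that hold histones before they are laid down on DNA, and NPM2 is the oocyte member. The genes examined here were 10 of the 52605 listed: the linker histone genes H1foo, H1f0 and H1fx, the H2A variant genes H2afx and H2afz, the H2B family gene H2bfm, the H3.3 genes H3f3a and H3f3b, and the chaperone genes Npm2 and Npm3. They were chosen by name, and their level in TPM, which is scaled by transcript length and by the total of each library, was followed across single germ cells from which cells with Ddx4 below 1 TPM were removed.

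The 146 libraries were labelled as single cells, picked with a mouth pipette from digested ovaries of untreated C57/BL6J pups at 0.5 days after birth. The ovaries came from a single litter and no label ties a cell to an animal, so all libraries were taken as 1 sample and no p-value is given. Primordial follicles form in the mouse ovary around birth. Reverse transcription from poly(dT) captured polyadenylated RNA only, and cells had been screened by PCR for Vasa (Ddx4) and against Foxl2.

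Of the 146 libraries 1 was left out by the Ddx4 limit, and all others were kept. In the library left out, 8 of the 10 genes were at 0, H3f3a stood at 0.947 TPM and H3f3b at 163 TPM, from 306 estimated reads. The kept cells held 4074810 to 26855273 reads on genes, with a median of 9498860. Each kept cell had at least 544 TPM of 6 germ cell markers. The 8 pregranulosa markers reached 0.1 TPM in 2.07% (Wnt6) to 44.8% (Wnt4) of cells, and their summed TPM had a median of 0.354. Foxl2, which the cells had been screened against, was at 3.45%. Blood markers were more frequent, with a summed median of 45.8 TPM and 324516 TPM in a single cell of cluster 1.

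Cells were ordered on the first component of 19 oocyte and meiosis genes and divided into 3 clusters of 19, 86 and 40 libraries. None of the 10 genes was used for this. Cluster 1 lay at the end where the meiotic gene Taf7l was high (mean 1419.9 TPM, against 149 TPM in cluster 3). Cluster 3 lay at the end where the zona pellucida gene Zp3 was high (mean 484 TPM, against 0.0943 TPM in cluster 1). Both of those genes were among the 19. The clusters are called by number, and their spread below is over libraries of 1 sample.

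Some libraries repeated each other. In 7 pairs, all within cluster 2, Pearson's r of log2(TPM + 1) over coding genes was 0.9905 to 0.9966, against at most 0.8701 for any other pair of kept libraries. The squared difference of their read counts was 1.66 to 4.58 times what counting alone gives (mean chi-square per gene). It was at least 191 times that for the 7 next most similar pairs. These pairs were therefore read as repeat libraries of the same cells, so the 86 libraries of cluster 2 stand for 79 distinct cells, and clusters 1 and 3 held no such pair. The labels name every library as a cell of its own, and values below are over libraries unless each pair was averaged and counted once. Counted once, the means of cluster 2 over 79 cells were 27.2 ± 69.5 TPM for H1foo, 227 ± 241 TPM for H1f0 and 3.92 ± 3.80 TPM for H1fx. They were 1.26 ± 7.13 TPM for H2bfm, 187 ± 163 TPM for H2afx and 555 ± 283 TPM for H2afz. H3f3a stood at 397 ± 230.0 TPM and H3f3b at 1733 ± 948 TPM, Npm2 at 2.58 ± 13.6 TPM and Npm3 at 26.7 ± 36.3 TPM. No gene of the 10 crossed 1.5-fold in any comparison, the largest move of a log2 ratio was 0.12, and rank correlations between the genes moved by at most 0.038. With new clusters of 19, 80 and 39 cells, 1 cell was placed elsewhere and the largest move was 0.24.

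RefSeq promoter windows, from 250 bases before to 50 after the annotated start in GRCm38.p6, were at hand for 5 of the 10 genes. The windows of H2bfm and H1f0 are shown because these genes were lower in later cells, and those of H3f3a and H3f3b because both genes encode the same H3.3 protein and were expressed at different levels. They are written 5′ to 3′ on the strand of the gene, and capitals mark CCAAT on either strand (ATTGG where it lies on the other strand).
H2bfm, chrX:136927075-136927374, + strand: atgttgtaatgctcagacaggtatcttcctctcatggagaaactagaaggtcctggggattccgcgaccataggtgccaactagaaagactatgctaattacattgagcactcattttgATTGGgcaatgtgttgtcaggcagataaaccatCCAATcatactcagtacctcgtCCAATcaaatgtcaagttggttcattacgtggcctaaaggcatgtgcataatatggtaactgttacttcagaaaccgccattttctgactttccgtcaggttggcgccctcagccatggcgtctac
H1f0, chr15:79027962-79028261, + strand: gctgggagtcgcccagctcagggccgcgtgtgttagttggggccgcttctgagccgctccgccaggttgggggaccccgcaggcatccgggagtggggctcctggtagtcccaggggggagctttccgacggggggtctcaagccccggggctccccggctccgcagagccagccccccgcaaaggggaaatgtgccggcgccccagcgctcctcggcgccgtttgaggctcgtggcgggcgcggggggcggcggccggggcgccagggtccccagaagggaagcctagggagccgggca
H3f3a, chr1:180813556-180813855, - strand: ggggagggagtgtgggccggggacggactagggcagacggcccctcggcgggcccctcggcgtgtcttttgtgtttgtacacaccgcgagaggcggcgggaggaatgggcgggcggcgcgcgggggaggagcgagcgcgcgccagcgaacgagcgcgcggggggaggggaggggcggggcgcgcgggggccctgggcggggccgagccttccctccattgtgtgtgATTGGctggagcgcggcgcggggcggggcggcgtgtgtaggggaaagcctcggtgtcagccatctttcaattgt
H3f3b, chr11:116024455-116024754, - strand: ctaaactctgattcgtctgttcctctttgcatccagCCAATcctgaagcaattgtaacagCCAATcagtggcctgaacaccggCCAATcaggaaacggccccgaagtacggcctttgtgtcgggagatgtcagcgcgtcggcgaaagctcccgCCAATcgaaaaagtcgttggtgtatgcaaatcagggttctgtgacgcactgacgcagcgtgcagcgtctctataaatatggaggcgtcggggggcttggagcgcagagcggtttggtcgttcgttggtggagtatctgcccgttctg

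CCAAT, on either strand, was found 3 times in the window of H2bfm, 4 times in that of H3f3b, 1 time in that of H3f3a and not in that of H1f0. It lay in 37.4% of the 32851 windows of this length, and 3 or more copies lay in 3.37%. In H2bfm the copies nearest the start began 98 and 76 bases before it, and the remaining copy lay further upstream on the other strand. The H3f3b window also held TATAAA, 27 bases before the start, and the octamer ATGCAAAT, 74 bases before it, which were in 13.6% and 1.74% of all windows on either strand. GGGCGG, present in 35.7% of windows on either strand, was found 6 times for H3f3a, with 4 of these overlapping another, and 1 time for H1f0. The window of H3f3a held 39 CpG and that of H3f3b 24, against a median of 7 over all windows. The matches overlapped no match of another motif in these windows, and they are letter matches with no binding measured. In GENCODE the H3f3b gene (chr11:116021912-116027962) and the H3f3a gene (chr1:180800832-180813943) begin upstream of the RefSeq start, and H1f0 (chr15:79028450-79030504) downstream of it. The GENCODE starts of H3f3b, H3f3a and H1f0 all lie outside the printed windows.

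The linker histone genes changed places along the order. H1f0, which encodes the replacement linker histone H1.0 of slowly dividing and differentiated cells, had a mean of 291 ± 197 TPM in cluster 1 (SD over 19 cells), 223 ± 233 TPM in cluster 2 (86 libraries) and 56.5 ± 65.4 TPM in cluster 3 (40 cells). The lowest, median and highest cells were at 51.2, 251.3 and 913 TPM in cluster 1, at 0, 167 and 1288 TPM in cluster 2 and at 0, 42.002 and 363 TPM in cluster 3. The ranges overlapped, and all 19 cells of cluster 1 stood above the median of cluster 3. The log2 ratio of mean TPM + 1 was -0.38 for cluster 2 over 1, and -1.96 for cluster 3 over 2. At the first step it passed 1.5-fold per spike-in RNA (-0.64) and when log2(TPM + 1) was averaged over cells (-1.01), so the lower level was not limited to the second step on those scales. With clusters built from 2000 variable genes the first step (-1.64) was larger than the second (-0.86).

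H1foo (chr6:115944938-115950236), the linker histone gene of oocytes and early embryos, did not reach 1 TPM in any cell of cluster 1, whose highest cell was at 0.441 TPM and whose 19 cells held 9 reads in all. In cluster 2 the median was 0 and the mean 25.0 ± 66.9 TPM. The mean was set by 23 of 86 libraries (23 of 79 distinct cells) at 1 TPM or more, with a highest cell at 409.8 TPM. In cluster 3 the mean was 175 ± 187 TPM, with a lowest cell at 0, a median of 122.7 TPM and a highest of 633 TPM, and 31 of 40 cells were at 1 TPM or more. Cluster 2 therefore held a minority of cells with H1foo among a majority without it, while cluster 3 was the reverse. Log2 ratios of means were 4.59 for the first step and 2.76 for the second, and 1.47 and 4.07 as differences of mean log2(TPM + 1), so which step was larger depended on the measure.

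H1f0 was found in nearly all cells, with or without H1foo. Of 54 libraries with H1foo at 1 TPM or more, 48 had H1f0 at 1 TPM or more and 6 did not. Of the libraries with less H1foo, 86 had H1f0 at that level and 5 did not. The share of H1foo in the summed TPM of H1foo, H1f0 and H1fx, which does not depend on scaling between cells, was at most 0.365% in the cells of cluster 1. In cluster 2 its median was 0% and 9 of 83 libraries (9 of 76 distinct cells) were above 50%. In cluster 3 its median was 81.01%, with quartiles of 37.7% and 89.6%, and 24 of 36 cells were above 50%. From reads without length scaling (CPM) the counts were 5 of 83 and 21 of 36 libraries, with a median of 70.1% in cluster 3. The other cells were not used because the sum was under 10 TPM. The summed TPM itself had medians nearer each other, at 260.2, 189 and 181 TPM in clusters 1, 2 and 3, while its composition differed. In CPM the medians of the sum were 403, 291 and 226, so how near they lay depended on the scale.

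H1fx, the gene of H1X, had the lowest mean of the linker histone genes in clusters 2 and 3, with means of 5.24 ± 5.53, 4.12 ± 3.84 and 2.75 ± 3.005 TPM in clusters 1, 2 and 3. Its 3735 reads over all kept cells were few, and it reached 0.1 TPM in 83.4% of cells but left a read in only 58.6% of cells once each was thinned to 500000 reads. The ratio between clusters 1 and 3 was -0.73, or -0.50 without the highest cell of cluster 1 at 21.7 TPM, so that 1 cell decided whether it passed 1.5-fold. It was also under 1.5-fold per spike-in (-0.33), with clusters built by Ward's method (-0.51) and from median TPM (-0.37).

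**Figure D1:**
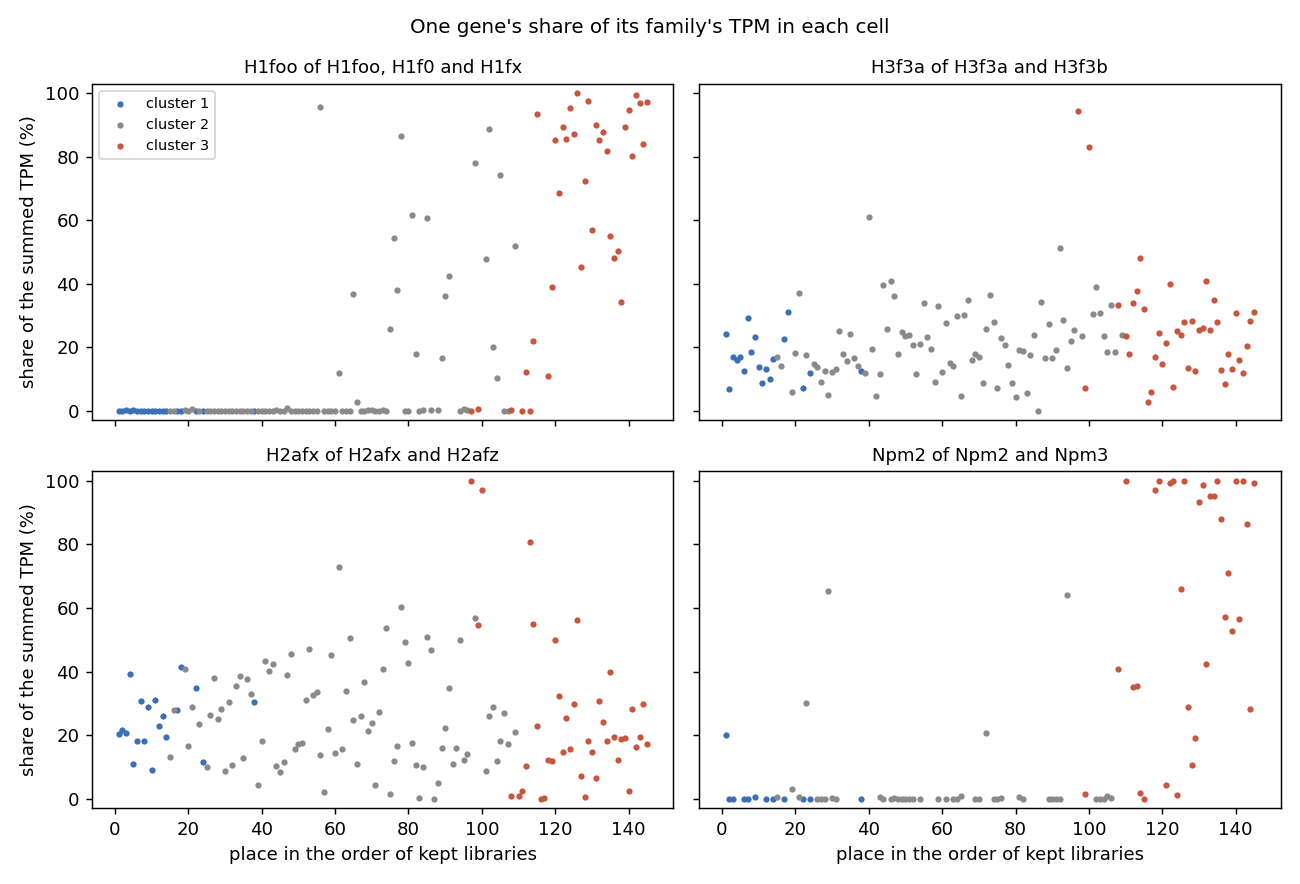
Share of one gene in the summed TPM of its family in each cell (vertical axis, percent) against the cell's place in the order of kept libraries (horizontal axis), coloured by cluster, for cells with at least 10 TPM of the family. H1foo shares lie at 0 to 0.365% throughout cluster 1, scatter from 0 to 95.5% in cluster 2 and have a median of 81.01% in cluster 3, whereas H3f3a shares stay mostly between 10 and 40%.

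H2bfm, an X-linked gene of the H2B family (chrX:136927325-136928376), was found mainly in cluster 1 and in only part of it. Of the 19 cells of cluster 1, 11 reached 0.1 TPM and 10 reached 1 TPM, and 8 were below 0.1 TPM. The 11 cells were at 422, 396.4, 396.2, 302, 219.9, 197, 165, 98.9, 49.8, 11.7 and 0.175 TPM. Cells of this cluster thus had either more than 10 TPM or less than 1 TPM.

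In cluster 2, 5 of 86 libraries (5 of 79 distinct cells) reached 0.1 TPM, led by cells at 48.1, 40.9 and 10.3 TPM. The cell at 40.9 TPM lay at place 19 of the order, where cells of clusters 1 and 2 are mixed, and that at 48.1 TPM at place 81. The cell at 48.1 TPM also had the highest H1foo of cluster 2 (409.8 TPM), and that at 40.9 TPM had 1.89 TPM of H1foo. No other kept cell had both genes at 1 TPM or more. Without the cell at 48.1 TPM the log2 ratio between clusters 2 and 3 went from -1.10 to -0.67, and without the cells holding 10 TPM or more of somatic markers to -0.28. In cluster 3 the highest cell was at 0.151 TPM.

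Summed over cells, H2bfm had 16859, 654 and 3 reads in clusters 1, 2 and 3. Relative to all reads on genes, cluster 1 was 110.9 times cluster 2 (exact 95% interval 102.6 to 120.1) and 12135 times cluster 3 (4152 to 58850). These intervals cover counting error of reads only. They take each read as independent and leave out copying in amplification and the spread between cells. Nearly all H2bfm reads therefore came from 10 cells. The cell with 324516 TPM of blood markers was 1 of the H2bfm cells, at 219.9 TPM.

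H2afx and H2afz were present in nearly every cell and, in TPM, lower at each step. Per spike-in RNA the second step differed, with H2afx at -0.26 and H2afz at 0.21 on the log2 scale. With clusters from 2000 variable genes, H2afz stood at -0.34 in TPM at that step, under 1.5-fold. H2afx encodes H2A.X, the H2A variant phosphorylated at DNA double-strand breaks, and its gene gives both polyadenylated and stem-loop mRNA, of which only the first was captured. It stood at 351 ± 157 TPM in cluster 1, 192 ± 160.4 TPM in cluster 2 and 85.4 ± 70.1 TPM in cluster 3. Its lowest, median and highest cells were at 79.2, 352 and 654 TPM in cluster 1 and at 0, 70.4 and 287 TPM in cluster 3, so the ranges overlapped between 79.2 and 287 TPM.

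H2afz encodes H2A.Z, a variant placed around transcription start sites. It stood at 1130.2 ± 479, 567 ± 281 and 325 ± 163 TPM in clusters 1, 2 and 3. The lowest, median and highest cells were at 573, 945 and 2283 TPM in cluster 1, at 77.6, 582 and 1312 TPM in cluster 2 and at 0, 329 and 721 TPM in cluster 3, so clusters 1 and 3 overlapped only between 573 and 721 TPM. Log2 ratios from cluster 1 to cluster 3 were -1.79 for H2afz and -2.03 for H2afx. The median H2afx share of the pair moved little, at 22.9%, 23.6% and 18.4% in clusters 1, 2 and 3. The share was above 50% in 0 of 19, 6 of 86 and 7 of 40 libraries, and in cluster 3 it ran from 0 to 100%.

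H3f3a and H3f3b encode the same H3.3 protein and had the smallest TPM ratios of the 10 genes between clusters 1 and 3. H3f3b was the most abundant, at 2236 ± 1387, 1708 ± 924 and 1591 ± 939.7 TPM in clusters 1, 2 and 3. Its lowest, median and highest cells were at 800.3, 1869.5 and 6446 TPM in cluster 1 and at 2.49, 1433 and 4344 TPM in cluster 3. H3f3a stood at 362 ± 98.2, 395 ± 225 and 437 ± 221 TPM, with medians of 359.5, 349 and 428 TPM. Neither gene passed 1.5-fold between any clusters in TPM, with log2 ratios from cluster 1 to cluster 3 of 0.27 for H3f3a and -0.49 for H3f3b, but per spike-in H3f3a passed it (0.94). H3f3b passed it when log2(TPM + 1) was averaged over cells (-0.84) and without the cells with 100 TPM or more of blood markers (-0.65), and between clusters 1 and 2 per spike-in (-0.62) and with clusters from 2000 variable genes (-0.68).

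The share of H3f3a in the TPM of the pair had medians of 16.03, 18.98 and 24.9% over the cells of clusters 1, 2 and 3, with overlapping quartiles. H3f3b was the larger in all but 4 cells. Reads that match several transcripts were divided among them by the counting program, and how many such reads these genes had was not measured. The processed pseudogenes listed beside the H3.3 genes, H3f3a-ps1 and H3f3a-ps2, had means of 0.0386 and 0.00753 TPM. The antisense gene H3f3aos, whose reads, where it overlaps H3f3a, cannot be told from its where strand is not kept, had a mean of 3.62 TPM. Gm17275, also on the other strand within H3f3a, averaged 0.151 TPM in cluster 1, against 4.36 in cluster 2 and 9.73 in cluster 3.

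Cells 67 and 14 of cluster 3 stood apart, with H3f3b at 2.84 and 2.49 TPM and neither H1foo nor Npm2. They had 24.3% and 21.1% of their reads on mitochondrial genes, against medians of 5.22%, 5.99% and 8.34% in clusters 1, 2 and 3. Genes with at least 1 read had medians of 12424, 12142 and 14504.5 in these clusters. The part of these differences between clusters in the values was not tested. In all, 10 cells had 15% or more of mitochondrial reads, 5 of them in cluster 3. The part of these cells in the values was not tested beyond leaving them out. Without these 10 cells the H3f3b ratio from cluster 2 to 3 went from -0.10 to 0.01 and the H1foo ratio from 2.76 to 2.89.

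Npm2 (chr14:70647302-70659244), the oocyte nucleoplasmin, was at or near 0 in most cells of clusters 1 and 2. Its median was 0 in clusters 1 and 2 and 37.7 TPM in cluster 3, where the mean was 132.1 ± 225 TPM and the highest cell at 1094 TPM. Of the cells of cluster 3, 31 of 40 were at 1 TPM or more. In cluster 1 it was 1 of 19 cells, and in cluster 2 it was 6 of 86 libraries (6 of 79 distinct cells). The scattered earlier cells were 1 cell of cluster 1, at 19.5 TPM, and in cluster 2 mainly cells at 91.8, 76.7 and 23.9 TPM. The log2 ratio between clusters 1 and 2 was 0.72 with the cell at 19.5 TPM and 1.72 without it, and leaving out any single cell gave 0.18 to 1.72, so this step rested on single cells. The cell at 19.5 TPM also held 306.7 TPM of ovarian somatic cell markers, and without all cells with 10 TPM or more of those markers the ratio was 1.78. Between clusters 2 and 3 it was 5.30, and 5.01 to 5.84 with any single cell left out, the highest without the cell at 91.8 TPM. It was 4.52 and 4.19 with the clusters built by Ward's method and from 2000 variable genes.

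Cells with H1foo and cells with Npm2 were not the same along the order. In cluster 1 no cell had H1foo at 1 TPM or more and 1 had Npm2, the first cell of the order. Mean Npm2 in the first of 5 bins was 4.23 TPM against 0.135 TPM for H1foo. That Npm2 mean came mainly from cells at 76.7 and 23.9 TPM, of cluster 2, and at 19.5 TPM, of cluster 1. The cells at 76.7 and 19.5 TPM also held 41.1 and 306.7 TPM of somatic markers. Libraries with 0.1 TPM or more in this bin were 31.03% for Npm2 and 27.6% for H1foo, so the means do not order these genes. In cluster 2, 23 libraries had H1foo at 1 TPM or more and 6 had Npm2, and 1 had both, with the same numbers when each repeated library was counted once. In cluster 3 each gene was present in 31 of 40 cells, 27 cells had both and 5 had neither. Along the order in 5 bins of 29 libraries, mean H1foo was 34.7 TPM in bin 3, when mean Npm2 was 0.244 TPM. Both genes were highest in bin 5, at 229 and 178 TPM. In cells thinned to 500000 reads the shares with a read in cluster 2 were 24.4% for H1foo and 4.65% for Npm2.

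Npm3, whose protein belongs to the same family and is found in the nucleolus, had another pattern. It stood at 42.4 ± 48.01, 27.9 ± 36.3 and 25.9 ± 32.3 TPM in clusters 1, 2 and 3 and was below 0.1 TPM in 47 libraries, 6 of them in cluster 1. Its median in cluster 2 was 8.26 TPM over libraries and 2.01 TPM with each repeated library counted once. It reached 0.1 TPM in 13 of 19 cells of cluster 1, 49 of 79 distinct cells of cluster 2 and 31 of 40 cells of cluster 3. Between clusters 1 and 2, and 1 and 3, its log2 ratios were -0.59 and -0.69, and without the highest cell of cluster 1 they were -0.35 and -0.46, under 1.5-fold. Npm2 made up more than 50% of the summed TPM of Npm2 and Npm3 in 0 of 12 usable libraries of cluster 1. In clusters 2 and 3 it did so in 2 of 43 and 21 of 34 usable libraries. Npm1, the ubiquitous nucleolar gene of the family, was more abundant than both, at 1248 ± 339.7, 902 ± 312 and 746 ± 313 TPM. The gene Xpo7, which overlaps Npm2 on the same strand, was lower in cluster 3 (10.8 TPM) than in cluster 1 (15.5 TPM), unlike Npm2.

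**Figure D2:**
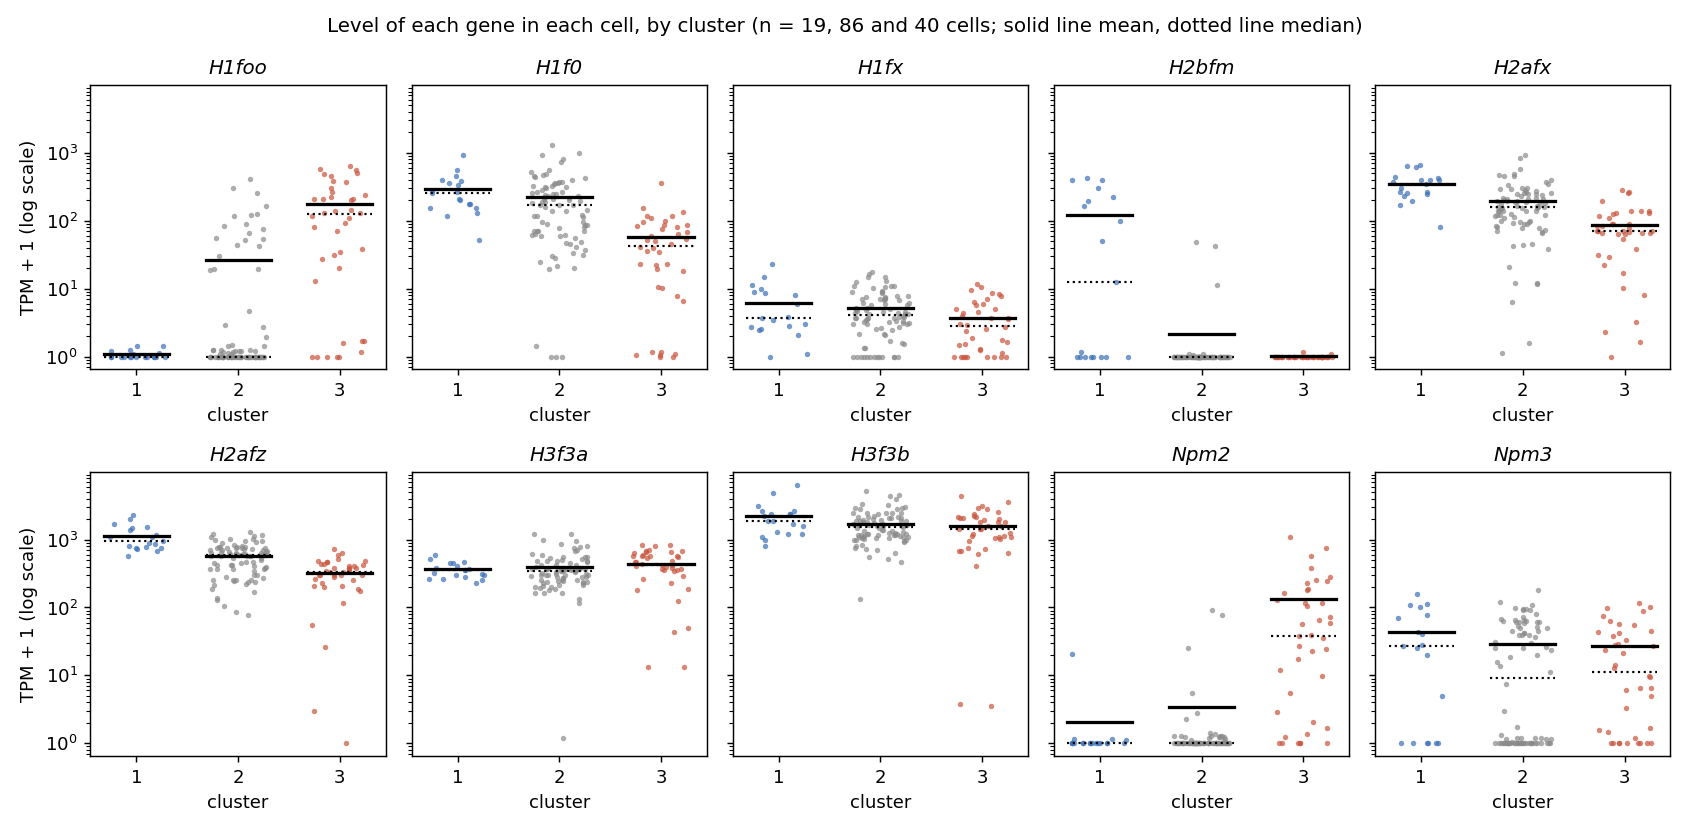
Level of each of the 10 genes in each cell (TPM + 1, log axis) in clusters 1, 2 and 3 (19, 86 and 40 libraries), with points for libraries, solid lines for means and dotted lines for medians. H1foo and Npm2 cells lie both near 0 and above 10 TPM, H2bfm is above 1 TPM in 10 cells of cluster 1, and H3f3b stays above 100 TPM in all but 2 cells.

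Counted together, 2 of the 10 genes were at least 1.5-fold higher and 4 lower between clusters 1 and 2, where 24% and 24.1% of 12441 coding genes were (48.1% in either direction). Between clusters 2 and 3 it was again 2 higher and 4 lower, against 19.4% and 30.3% of 12299 genes (49.7% in either direction). Between clusters 1 and 3 it was 2 higher and 6 lower, against 28% and 38.2% of 12667 genes (66.2% in either direction). The higher genes were H1foo and Npm2 each time. H2bfm, H2afx and H2afz were lower in all 3 comparisons, H1f0 in those with cluster 3, and Npm3 and H1fx only in part. In either direction the 6, 6 and 8 genes exceeded these shares of 10 genes by less than 2 genes, and the median log2 ratios of the 10 genes were -0.39, -0.28 and -0.71 in these comparisons, beside -0.03, -0.19 and -0.21 for all genes tested.

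The scale mattered for the second step. TPM gives a share of a cell's mRNA, and spike-in RNA added to each cell gives another scale, on which the median log2 ratio of all genes was -0.19 for cluster 2 over 1, 0.49 for 3 over 2 and 0.30 for 3 over 1. Per spike-in, 1 of the 10 genes was higher and 7 lower between clusters 1 and 2 (19.8% and 31.2% of all genes), 4 higher and 2 lower from 2 to 3 (44.9% and 11.2%), and 3 higher and 4 lower from 1 to 3 (41.4% and 24.2%). H2afz went from -0.80 in TPM to 0.21 per spike-in between clusters 2 and 3, and H2afx from -1.16 to -0.26. H1fx, H3f3b and Npm3 also changed sign at that step, to 0.31, 0.78 and 0.47, and H3f3a reached 1.13. H1foo (3.64) and Npm2 (6.87) stayed higher and H1f0 (-1.12) and H2bfm (-1.25) lower on both scales. For H2bfm this step rested on few cells, since 3 of 86 libraries of cluster 2 were at 1 TPM or more. It was -0.16 as the difference of mean log2(TPM + 1). Relative to the median of all genes, H2afz was lower by 0.61 in TPM and by 0.28 per spike-in, and H3f3a was higher by 0.34 and 0.63.

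**Figure D3:**
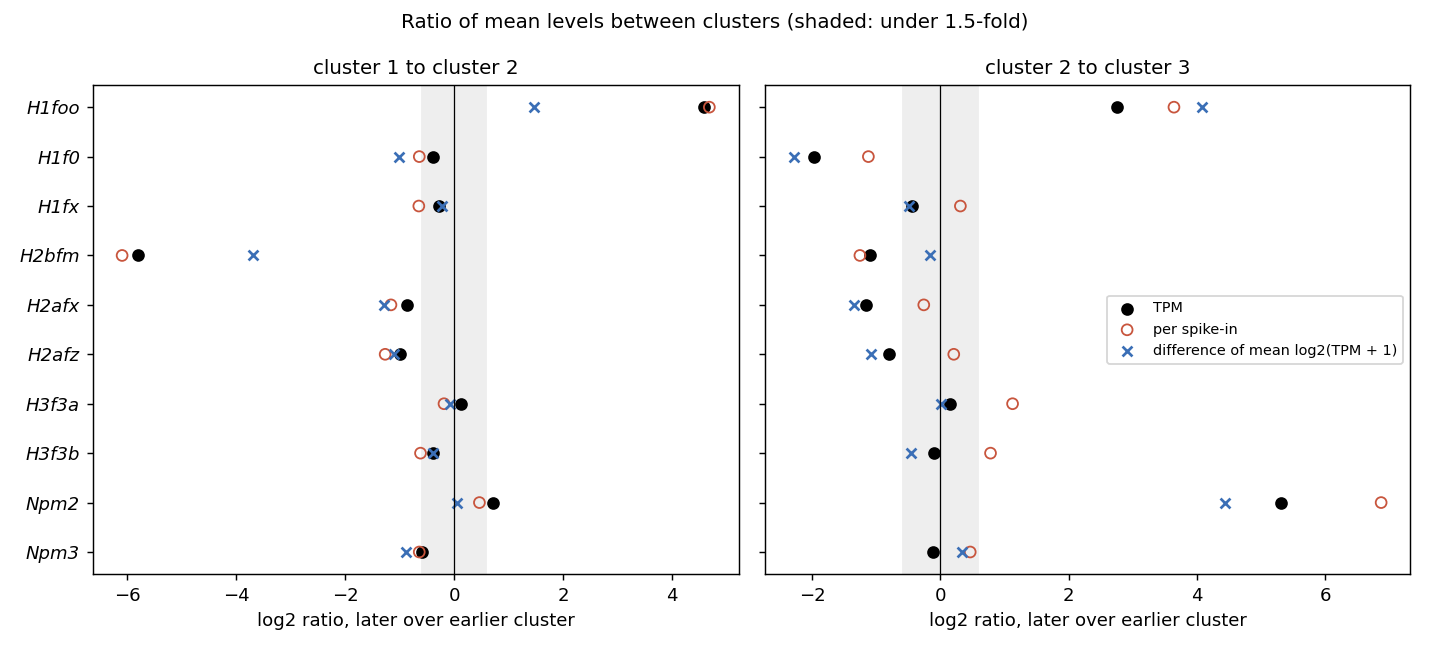
Log2 ratio of mean levels for each of the 10 genes for cluster 2 over 1 (left) and 3 over 2 (right), as TPM (filled), per spike-in (open) and as the difference of mean log2(TPM + 1) (crosses), with ratios under 1.5-fold shaded. H1foo and Npm2 lie far to the right at the second step on every scale, while H2afz stands at -0.80 in TPM and at 0.21 per spike-in.

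Along the order, Spearman's rank correlation over the kept libraries, all of 1 sample, was 0.67 for H1foo and 0.55 for Npm2, and -0.59 for H1f0, -0.56 for H2afz and -0.54 for H2afx. It was -0.35 for H2bfm, which is at 0 in most cells, and between -0.22 and 0.21 for H1fx, H3f3a, H3f3b and Npm3. H1foo and Npm2 also went with reads per cell (0.36 for each) and against the spike-in level (-0.42 and -0.40), and the part of either was not tested. Per spike-in the values were 0.69 and 0.57 for H1foo and Npm2, -0.49 for H1f0, -0.28 for H2afx and -0.15 for H2afz. Within the 86 libraries of cluster 2, H1foo kept 0.47 and H1f0 -0.39, whereas Npm2 was at -0.03.

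**Figure D4:**
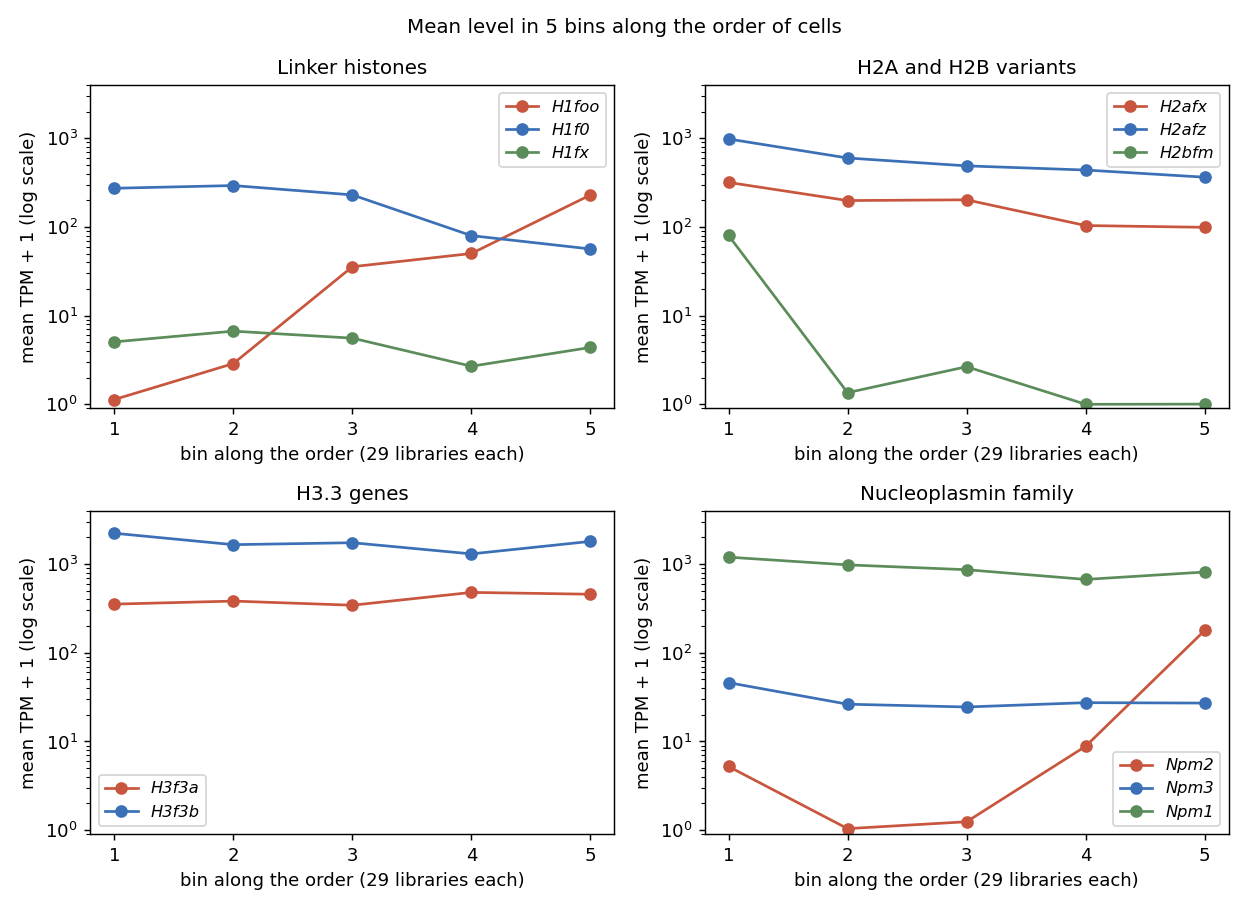
Mean level (TPM + 1, log axis) in 5 bins of 29 libraries along the order, grouped as linker histones, H2A and H2B variants, H3.3 genes and the nucleoplasmin family, with Npm1 beside the 10 genes. H1foo overtakes H1f0 between bin 4 (49.3 against 78.99 TPM) and bin 5 (229 against 55.6 TPM), H2bfm is at 79.3 TPM in bin 1 and below 2 TPM after it, and Npm2 is at 178 TPM in bin 5.

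Between genes, the rank correlation over the same cells was highest for H1foo with Npm2 (0.52), H2afx with H2afz (0.45), H2afz with H3f3b (0.44) and H1f0 with H2afx (0.43). It was lowest for H1foo with H1f0 (-0.45). Within cluster 2 these were 0.18, 0.21, 0.46, 0.28 and -0.27, so of these 5 only H2afz with H3f3b was as high within that cluster. Both H3.3 genes had a rank correlation of 0.24 with each other, or 0.62 per spike-in, a scale on which cells with more RNA are higher for many genes at once.

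**Figure D5:**
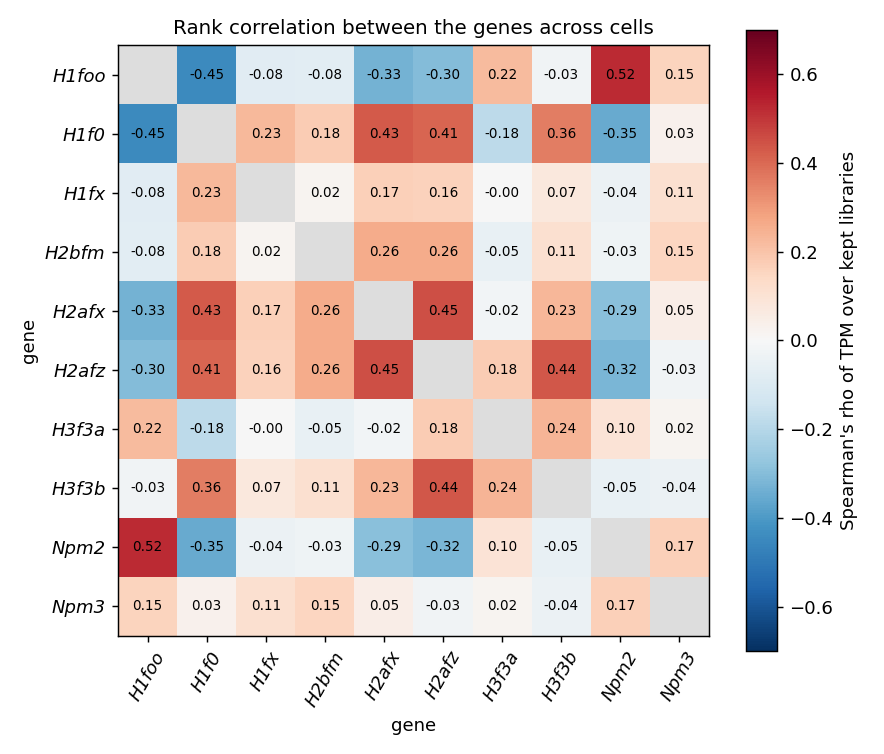
Spearman's rank correlation of TPM between each pair of the 10 genes over the kept libraries (colour and printed value), both axes listing the genes. The pair H1foo and Npm2 is at 0.52 and the pair H1foo and H1f0 at -0.45, and H1fx and Npm3 have low values with every other gene.

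The genes outside the 10 whose TPM followed each most closely, among 11572 coding genes over the same cells, were for H1foo Padi6 (rank correlation 0.71), Nlrp4f (0.68) and Zp3 (0.68), and for Npm2 Zp3 (0.73), Zp1 (0.68) and Dpf3 (0.67). For H1f0 they were Taf7l (0.58), Hspa5 (0.57) and Eif4a2 (0.56), and for H2afx Hormad1 (0.56), Maoa (0.55) and Taf7l (0.54). For H2afz they were Cacybp (0.65), Atp5f1 (0.62) and Psmb1 (0.61), and for H3f3a Hmgb1 (0.61), Uqcrb (0.59) and Rpl35 (0.55). H2bfm had lower values, with Cfap57 (0.49), Magea10 (0.48) and Ppp1r36 (0.47), and Magea10 stood at a mean of 45.4 TPM in cluster 1 and 0.00461 TPM in cluster 3. H3f3b came closest to Denr (0.53), Pdcd4 (0.53) and Mrps18c (0.48), H1fx to Prrc2a (0.51), Rps20 (0.47) and Rps12 (0.45), and Npm3 to Ipo7 (0.46), Xxylt1 (0.45) and Gpr137 (0.41). Zp3, Zp1 and Taf7l were among the 19 genes that made the order.

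A wider list of 55 other histone variants, histone chaperones and remodellers was read beside them. From cluster 1 to cluster 3, 15 of the 49 tested were at least 1.5-fold higher and 16 lower, which is 30.6% and 32.7% and close to all genes in TPM. Per spike-in it was 20 and 5, or 40.8% and 10.2%, against 41.4% and 24.2% of all genes. Higher were H2afj, an H2A variant gene (11.6 to 66.7 TPM, log2 ratio 2.43), Anp32a, an acidic nuclear protein gene (2.36 to 17.1 TPM, 2.43), and Cenpa, the centromeric H3 gene (mean of 85.8 TPM in cluster 3, 2.35). Lower were Hist1h2ba, the germ cell H2B variant gene (28.5 to 0.856 TPM, -3.99), Asf1b, an H3-H4 chaperone gene (119.9 to 24.1 TPM, -2.27), and Oip5, of the complex that loads CENPA (111.7 to 23.5 TPM, -2.20). Per spike-in these 6 kept their direction. Hist1h2ba and H2bfm were thus both H2B variant genes with their highest mean in cluster 1.

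Of the H3.3 chaperone genes, named for their role after their values were seen, Atrx was higher in cluster 3 (70.9 to 165 TPM, log2 ratio 1.21) and Daxx lower (54.3 to 25.6 TPM, -1.06, or -0.25 per spike-in). Hira, Ubn1, Ubn2 and Cabin1 lay between -0.19 and 0.46 over the same clusters. In TPM, Hira and Ubn1 had their highest mean in cluster 2, with log2 ratios of 1.06 and 0.65 at the first step and -0.60 and -0.83 at the second. Per spike-in these ratios were 0.41 and 0.36 at the first step and -0.34 and -0.06 at the second, all under 1.5-fold. The H3.3 genes themselves did not pass 1.5-fold in TPM over the same cells.

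Markers of other cell types were read beside these genes, and their part in the values was not tested beyond leaving cells out. The rank correlation with the summed markers of pregranulosa, stroma, endothelium or blood lay between -0.26 and 0.23 for each of the 10 genes. Stromal markers were at medians of 4.35, 0.975 and 0.558 TPM in clusters 1, 2 and 3, and blood markers at 41.002, 70.8 and 32.6 TPM. Without the 59 libraries holding 10 TPM or more of somatic markers, 9, 48 and 29 were left in clusters 1, 2 and 3. Without the 56 libraries with 100 TPM or more of blood markers, 12, 51 and 26 were left. The ratio of H2bfm from cluster 1 to cluster 2 was -6.81 and -6.45 in these sets, against -5.80 in all cells.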

How the data were processed

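Single germ cells were profiled with Smart-seq2, a full-length poly(dT) method without molecular identifiers. Per the submitters' processing notes and the study's methods, the authors checked reads with FastQC and quantified them with Salmon against mm10 and spike-in sequences. The deposited tables give TPM and estimated counts per gene symbol for each cell. TPM was used as deposited. The estimated counts served for depth, thinning to 500000 reads, and CPM, reads scaled by library total alone, as an alternative. The deposited lengths were not used, since for genes with several transcripts they were 2.00 to 6.62 times below the length implied by TPM.

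Cells with Ddx4 below 1 TPM were left out. Coding genes were clustered in Seurat 5.3.0 (R 4.3.3) on 10 components of 19 genes, the marker genes named in the study without H1foo, plus Taf4b, at the lowest resolution that gave 3 clusters (0.2). Ratios are log2 of mean TPM + 1. A gene was called when it differed 1.5-fold or more and tested when its mean was at least 1 TPM in either cluster. Detection meant 0.1 TPM. The 95% interval of a ratio of summed reads is exact binomial (Clopper-Pearson), takes each read as independent and covers counting error only. Named genes outside the 10 were the 3 highest rank correlations per gene and, from the wider list, the 3 largest ratios in each direction between clusters 1 and 3 among genes with 10 TPM or more. The ratio code was tested on simulated data. Members and lists were chosen with earlier results of these data known. Alternatives were other clusterings, scales, pseudocounts and cell sets, and 3 cell sets (by somatic markers, blood markers and mitochondrial reads) and the averaging of 7 pairs of repeat libraries (r above 0.95), with and without new clusters, were added after seeing the data. Python 3.11.15, pandas 2.3.3 and SciPy 1.17.1 were used.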

Additional observations from a re-analysis of the deposited data

How the results depend on the processing

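All cells count as 1 sample, without a replicate test, and clusters were rebuilt, so they may differ from the study's own. The number of genes past 1.5-fold stayed within 1.5 times of the main count under each alternative run (4 to 8, 5 to 6 and 7 to 8 for clusters 1 to 2, 2 to 3 and 1 to 3, and 5 to 6, 6 and 7 to 8 with any 1 cell left out). Of 510 gene ratios recomputed, 419 kept their side of 1.5-fold and moved by less than that fold, 90 did not, and 1 that was past 1.5-fold in TPM changed sign, H2afz from cluster 2 to cluster 3, at 0.21 per spike-in. Its cause was not tested. Ratios under 1.5-fold in TPM also changed sign per spike-in. From cluster 2 to 3 these were H1fx (0.31), H3f3b (0.78) and Npm3 (0.47). The others were H3f3a from cluster 1 to 2 (-0.18) and H3f3b from cluster 1 to 3 (0.17). The settings that moved most were per spike-in (19 of 30 moved, beside the 1 that changed sign), clusters built from 2000 variable genes (16) and averaged log2(TPM + 1) (14). Those clusters moved, among others, H1f0 from cluster 1 to 2 (-1.64 in place of -0.38). Npm3 from cluster 1 to 2, at -0.59, lay on the threshold and fell under it in CPM (-0.51), and from cluster 1 to 3, at -0.69, it fell under it in CPM (-0.47) and per spike-in (-0.17). No paired analysis was possible because the labels give each cell a number and no group or animal.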
